A study of Mus musculus with 12 samples.

Results

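Transcripts of the alpha-v integrin subunit, its β partners and other matrix-binding α subunits were followed across all 12 libraries of bone marrow-derived macrophages (BMDMs). The members were 8 named genes, the α subunit genes Itgav, Itga5, Itga6 and Itga9 and the β subunit genes Itgb1, Itgb3, Itgb5 and Itgb8, taken by symbol from the 18376 genes listed. All 8 were listed, and all 8 passed the filter on low values. BMDMs were grown from bone marrow progenitor cells of adult wild-type C57BL6/J mice with 50 ng/ml mouse M-CSF, which every group received. In the CTRL group nothing else was added. Act cells received 50 ng/ml recombinant activin A, FST cells 250 ng/ml FST288, and Act + FST cells both, for 6 days, with 3 libraries in each of the 4 groups. The labels do not say that the libraries of a group came from separate mice or cultures, so p-values measure the spread between these libraries, which may be technical.

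Integrins are adhesion receptors made of 1 α and 1 β chain, and the pairing decides which ligand is bound. The alpha-v chain pairs with several β chains to bind the RGD motif of vitronectin, fibronectin, osteopontin and the propeptide of latent TGF-β, while α5, α6 and α9 pair with β1 to bind fibronectin, laminins (α6 also pairs with β4), and tenascin C or osteopontin. In macrophages these receptors serve spreading, migration and the uptake of apoptotic cells, and αvβ3 is abundant on osteoclasts. Activin A is a ligand of the TGF-β family that signals through SMAD proteins, and FST288 is a follistatin isoform that binds it.

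Values are normalized counts, that is, counted reads per gene scaled by 1 factor per library, and library totals ranged from 5643708 to 5955400. Whether reads sharing a start were removed before counting is not known. The macrophage identity of the cells was read from 12 marker genes, all listed, whose summed value was 15918 to 17421 in CTRL and 15719 to 16550 in Act. Within this sum, Aif1 and Cd14 rose and Cd163 and Mrc1 fell from CTRL to Act. Pmepa1, Smad7 and Skil, genes known to respond to activin signalling, were higher in Act than in CTRL. In such bulk samples, fewer cells expressing a gene and less RNA per cell cannot be told apart.

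Promoter sequences are shown for 3 subunits that rose with activin A and for Itgb1, which did not pass the test in any comparison. They are the 250 bases before the RefSeq start of each gene in GRCm38.p6, 5′ to 3′ on the gene's strand, and 6 of the 8 members had an entry (Itga6 and Itgb3 had none). The capitals mark CAGAC, the SMAD-binding element, and GGGCGG, the GC box, each on either strand. Itgav lies at chr2:83724147-83724396 (+), Itga5 at chr15:103366792-103367041 (-), Itgb5 at chr16:33829415-33829664 (+) and Itgb1 at chr8:128685404-128685653 (+).
Itgav: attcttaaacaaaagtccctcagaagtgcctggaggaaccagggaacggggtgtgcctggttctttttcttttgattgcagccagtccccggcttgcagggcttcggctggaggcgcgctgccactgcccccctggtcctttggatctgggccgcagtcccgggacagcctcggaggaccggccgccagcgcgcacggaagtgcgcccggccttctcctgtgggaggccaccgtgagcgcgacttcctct
Itga5: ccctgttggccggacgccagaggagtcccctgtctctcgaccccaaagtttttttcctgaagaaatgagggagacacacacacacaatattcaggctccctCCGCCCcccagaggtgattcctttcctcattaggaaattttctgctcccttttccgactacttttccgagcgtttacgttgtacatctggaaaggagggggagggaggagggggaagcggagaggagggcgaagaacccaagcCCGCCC
Itgb5: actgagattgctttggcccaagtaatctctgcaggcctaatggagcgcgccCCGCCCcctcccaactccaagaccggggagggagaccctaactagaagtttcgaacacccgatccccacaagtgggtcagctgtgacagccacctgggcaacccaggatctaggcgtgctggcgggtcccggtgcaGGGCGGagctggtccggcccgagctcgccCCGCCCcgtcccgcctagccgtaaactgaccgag
Itgb1: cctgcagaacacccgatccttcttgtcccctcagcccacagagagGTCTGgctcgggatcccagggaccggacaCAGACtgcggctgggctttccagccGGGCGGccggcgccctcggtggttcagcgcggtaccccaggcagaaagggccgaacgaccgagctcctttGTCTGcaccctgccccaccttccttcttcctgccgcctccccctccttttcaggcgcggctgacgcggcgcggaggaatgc

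The Itgb1 promoter held 3 copies of CAGAC, and those of Itgav, Itga5 and Itgb5 held 0. Among the 6 members with an entry, 2 had CAGAC (Itgb1 and Itgb8), against 42.2% of all 32851 promoters of this length. GGGCGG was in 3 of the 6 (32.7% of all), GGCGC, the GC-rich SMAD site, in 4 (32%), CACCTG, an E box, in 3 (17.2%) and GAGGAA, a PU.1 core, in 3 (23.3%). TGANTCA, the AP-1 site, and TATAAA, the TATA box, were in 0 of the 6, against 6.75% and 12.4% of all. Copies on both strands were counted, and 2 of the 4 GGCGC copies of Itgb1 overlap each other. G and C made up 64.4% of the Itgav window, 55.6% for Itga5, 65.2% for Itgb5 and 68% for Itgb1, against a median of 52.4% over all promoters. The windows of Itga9 (chr9:118711442-118711691) and Itgb8 (chr12:119238277-119238526) lie inside their genes as placed by the annotation used for the counts. Both are among the 3 windows with CACCTG, and the Itgb8 window is also counted with CAGAC and GGCGC. These matches describe letters in the window only.

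To ask how activin A changed the subunits, Act was compared with CTRL. Of the 8 members, 5 passed the test (limma, adjusted p of at most 0.05): Itgav, Itga5, Itga6 and Itgb5 rose, and Itgb3 fell. Over all 14318 genes tested, 20.2% passed in this comparison, 10.3% as higher and 9.97% as lower. A change of at least 2-fold was also reached by 1 of the 8, Itgb3, and by 5.66% of all genes. The 3 Act libraries lay entirely above or below the other 9 libraries for the same 5 members, as they did for 23.9% of all genes tested.

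**Figure D1:**
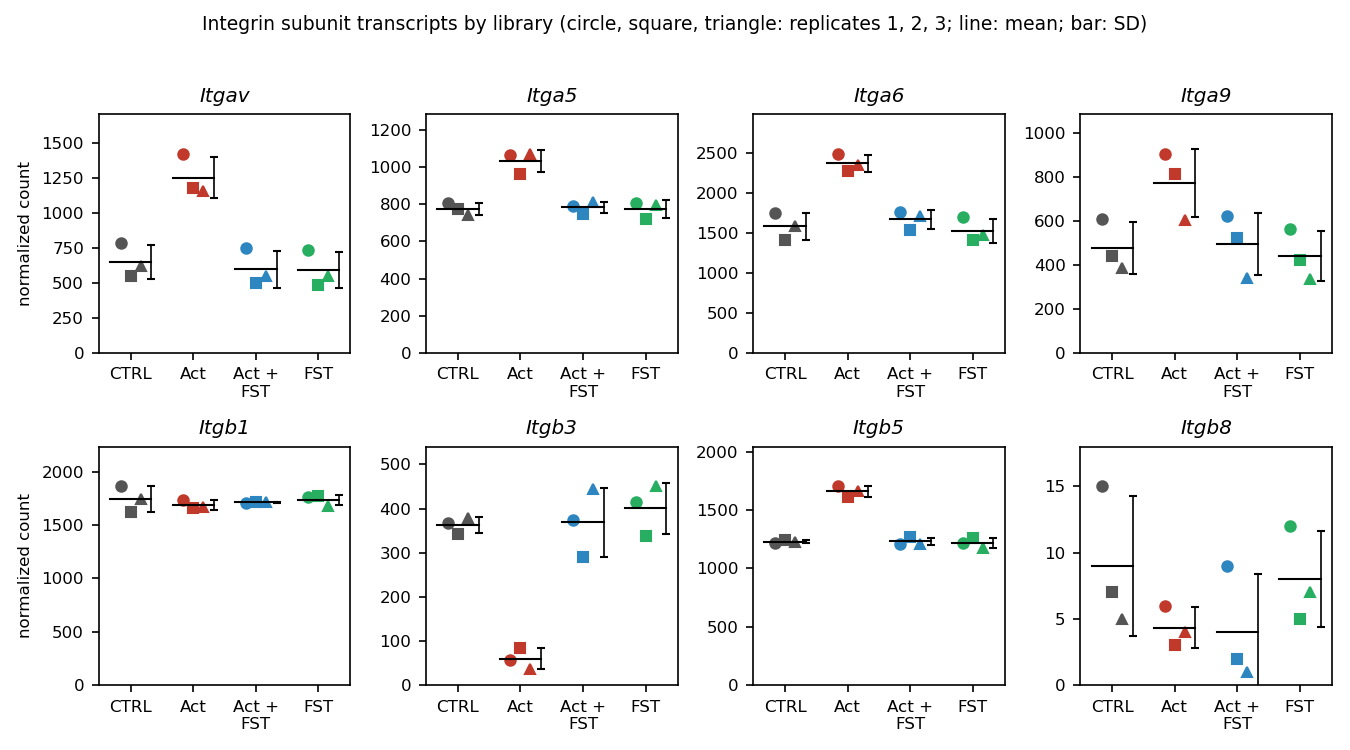
Normalized count of each of the 8 subunit transcripts in the 12 libraries (vertical axes from 0, a different scale per panel), with points for libraries, a line for the group mean and a bar for the SD, cut at 0 for Itgb8. The 3 Act libraries sit above the other 9 for Itgav, Itga5, Itga6 and Itgb5 and below them for Itgb3.

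Itgav encodes the alpha-v chain itself (ENSMUSG00000027087, GRCm38, chr2:83724397-83806916, plus strand). Its normalized counts were 784, 547 and 618 in CTRL, against 1418, 1178 and 1156 in Act. They were 745, 495 and 548 in Act + FST and 732, 487 and 549 in FST. All Act libraries stood above the highest of the other 9, 784, and replicate 1 was the highest in every group. The fitted log2 fold change of Act versus CTRL was 0.95 ± 0.18 (SE; adjusted p = 0.00224), a 1.94-fold rise. Of its exonic bases, 5.9% are shared with Gm13684 on the opposite strand, and the strand setting of the counting was not given in the sources used here.

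Itga6 encodes the α chain of laminin receptors (ENSMUSG00000027111, chr2:71745616-71858416, plus strand). Its normalized counts were 1747, 1408 and 1589 in CTRL, against 2486, 2276 and 2357 in Act. They were 1764, 1537 and 1714 in Act + FST and 1698, 1408 and 1474 in FST. The lowest Act library thus exceeded the highest of the other 9, and the log2 fold change was 0.59 ± 0.09 (SE; adjusted p = 4.19e-04).

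Itga5 encodes the α chain of the classical fibronectin receptor α5β1 (ENSMUSG00000000555, chr15:103344286-103366763, minus strand). It was measured at 809, 774 and 743 normalized counts in CTRL, against 1067, 965 and 1070 in Act. The Act + FST libraries held 791, 750 and 811 and the FST libraries 807, 720 and 794. Act did not overlap with any other group, and the rise was 0.41 ± 0.06 on the log2 scale (SE; adjusted p = 2.92e-04).

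Itga9, the chain of a tenascin C and osteopontin receptor (ENSMUSG00000039115, chr9:118606690-118901003, plus strand), had the largest SE of the α subunits on the log2 scale. The CTRL libraries held 609, 440 and 383 normalized counts and Act libraries 902, 813 and 601. The values were 620, 520 and 340 with both agents (Act + FST) and 562, 421 and 337 with FST288 alone. The lowest Act library fell below the highest CTRL library. Replicate 1 was the highest and replicate 3 the lowest in every group. The log2 fold change was 0.70 ± 0.24 (SE), with an adjusted p of 0.0635 when replicate numbers were ignored. With the replicate number as a block, the adjusted p was 2.32e-06 at the same log2 fold change, with an SE of 0.07, and 31.5% of all genes passed in that fit. Over 24 settings the adjusted p ranged from 2.3e-06 to 0.214, and 6 settings called it, among them those without CTRL replicate 1, without Act replicate 3 and without Act + FST replicate 3. Within each replicate number, Act exceeded CTRL, by 0.57, 0.88 and 0.65 on the log2 scale.

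The β subunits differed among themselves. Itgb3, the β chain of the osteoclast receptor αvβ3 and of the platelet fibrinogen receptor (ENSMUSG00000020689, chr11:104608000-104670476, plus strand), fell. Its normalized counts were 367, 343 and 379 in CTRL, against 57, 85 and 37 in Act, and they were 374, 289 and 445 in Act + FST and 414, 337 and 450 in FST. Every Act library lay below the lowest of the other 9, 289. The log2 fold change of -2.66 ± 0.24 (SE; 95% interval -3.18 to -2.15; adjusted p = 1.03e-05) was exceeded in size by 0.664% of all genes tested.

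Other transcripts typical of osteoclasts moved beside Itgb3 in both directions. Of 7 such markers tested, of 9 listed among 10, 1 was higher in Act than in CTRL and 2 were lower. With the replicate block 3 were higher and 3 lower. All genes tested had shares of 10.3% higher and 9.97% lower, and 31.5% passed with the block. Ctsk, the bone collagen protease cathepsin K, fell from 108, 120 and 80 to 30, 40 and 27 normalized counts, and Atp6v0d2, a proton pump subunit, fell from 1194, 1030 and 984 to 601, 548 and 422. Acp5, the phosphatase TRAP, rose from 99, 89 and 57 to 189, 174 and 181. In Act + FST, Ctsk was at 57, 56 and 62, Atp6v0d2 at 898, 822 and 702 and Acp5 at 93, 67 and 54. Against CTRL, 0 of the 7 passed in Act + FST (0% of all genes). With the block, 2 passed as lower (0.559% of all genes). The summed osteoclast markers were 3178 to 3839 in CTRL and 2810 to 3198 in Act. The 10 listed of 11 megakaryocyte and platelet markers summed to 2100 to 2528 in CTRL and 1518 to 1624 in Act. Vwf carried this difference, since the other 9 summed to 485 to 606 and 438 to 587. Vwf alone of the 7 tested passed, as lower (3 with the replicate block). Gp9 was listed at 2, 6 and 3 in CTRL and at 0, 2 and 2 in Act, whereas Pf4, also a platelet gene, was at 314, 270 and 252 and at 282, 316 and 273. The part of these cells in the fall of Itgb3 was not tested.

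Itgb5, the β chain of the vitronectin receptor αvβ5 (ENSMUSG00000022817, chr16:33829665-33949338, plus strand), rose with the narrowest spread. The CTRL libraries held 1216, 1243 and 1226 normalized counts and Act libraries 1703, 1611 and 1666. The values were 1213, 1270 and 1213 with both agents (Act + FST) and 1215, 1261 and 1177 with FST288 alone. All 3 Act libraries were above the highest of the other 9, 1270. The log2 fold change was 0.43 ± 0.04 (SE; adjusted p = 1.17e-05), a 1.35-fold rise.

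Itgb1, the partner of α5, α6, α9 and many other α chains (ENSMUSG00000025809, chr8:128685654-128733200, plus strand), was not called. Normalized counts of 1864, 1623 and 1744 in CTRL stood beside 1740, 1659 and 1673 in Act. With both agents (Act + FST) they were 1708, 1721 and 1715, and with FST288 alone 1763, 1772 and 1683. The groups overlapped, and the log2 fold change of Act versus CTRL was -0.04 (95% interval -0.15 to 0.06; adjusted p = 0.619).

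Itgb8, the β chain of a receptor that releases active TGF-β (ENSMUSG00000025321, chr12:119158022-119238802, minus strand), was barely detected. Its CTRL libraries were listed at 15, 7 and 5 normalized counts and its Act libraries at 6, 3 and 4. With both agents (Act + FST) the values were 9, 2 and 1, and with FST288 alone 12, 5 and 7. The log2 difference of Act versus CTRL was -0.82, with a 95% interval of -2.06 to 0.42 (adjusted p = 0.372). With the replicate block the limma interval was -1.63 to -0.005 (unadjusted p = 0.0488, adjusted p = 0.121). Act was below CTRL in all 3 same-numbered pairs. No difference was called in either fit at these low values.

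**Figure D2:**
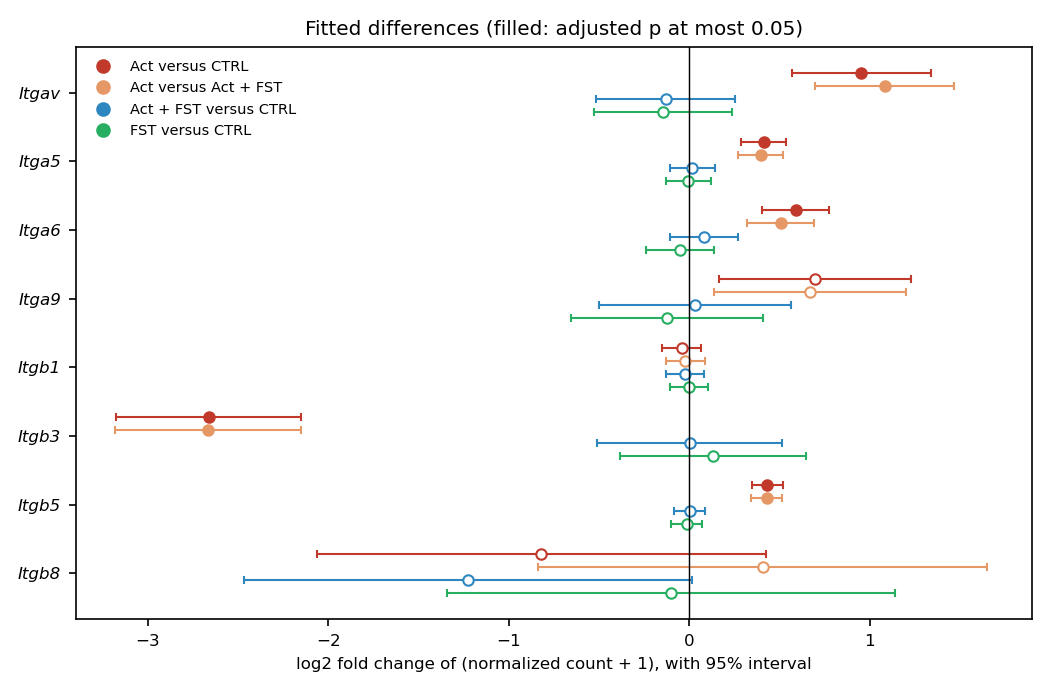
Log2 fold change of (normalized count + 1) with its 95% interval from limma for each subunit (rows) in 4 comparisons (colours), with filled points where the adjusted p was at most 0.05. The values of Act versus CTRL and Act versus Act + FST lie close to each other for all but Itgb8, and no point of Act + FST or FST versus CTRL is filled.

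To ask whether FST288 changed the response, Act was compared with Act + FST, which shares its Act libraries with the comparison above. The called members were 5 of 8, against 21.3% of all genes (11.1% higher and 10.2% lower). Itgav was higher by 1.08 ± 0.18 on the log2 scale (SE; adjusted p = 9.15e-04), Itga6 by 0.51 (adjusted p = 0.00121), Itga5 by 0.40 (adjusted p = 3.84e-04) and Itgb5 by 0.43 (adjusted p = 1.34e-05). For Itgb3 the difference was -2.67 (adjusted p = 1.03e-05). Itgav and Itgb3 passed 2-fold, as did 5.83% of all genes. For Itga9 the difference was 0.67, with an adjusted p of 0.0738 and of 3.42e-06 with the replicate block, in which 32.6% of all genes passed. Over 24 settings its adjusted p ranged from 3.32e-06 to 0.274, and leaving out Act + FST replicate 1 also gave a call. For Itgb1 it was -0.02 (adjusted p = 0.826).

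Against CTRL, 0 of 8 members passed in Act + FST and 0 of 8 in FST, as did 0% of all genes in both. At an unadjusted p under 0.05 the members numbered 0 in both, while 655 (4.57%) and 299 (2.09%) of all genes passed. With the replicate block, 2 members had an unadjusted p under 0.05 in Act + FST (9.81% of all genes) and 1 in FST (4.89%). Itgb8 had -1.23 in Act + FST (95% interval -2.04 to -0.41), and Itgav had -0.13 in Act + FST (-0.24 to -0.02) and -0.15 in FST (-0.26 to -0.03), lower in all 3 same-numbered pairs of each comparison. After adjustment in that fit, 0 members passed either comparison, against 0.559% of all genes in Act + FST and 0% in FST. The intervals without the block show what could have been missed. For Itgb5, Act + FST minus CTRL was 0.00 on the log2 scale (95% interval -0.08 to 0.09), for Itga5 0.02 (-0.11 to 0.14), for Itga6 0.08 (-0.10 to 0.27), for Itgb3 0.00 (-0.51 to 0.52) and for Itgav -0.13 (-0.51 to 0.25). The Itga9 interval was wider, -0.50 to 0.56. Itgb8 had the lowest value, -1.23 (-2.47 to 0.02; unadjusted p = 0.0528).

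The activin A effect was then compared directly between cells without FST288 (Act minus CTRL) and with it (Act + FST minus FST). The effects differed for 5 of 8 members, against 6.74% of all genes. Itgb3 changed by -2.66 on the log2 scale without FST288 and by -0.13 with it (adjusted p of the difference = 9.65e-04). Itgb5 rose by 0.43 without and had a value of 0.02 with it (adjusted p of the difference = 0.0010). The corresponding values were 0.95 and 0.02 for Itgav (adjusted p = 0.0430), 0.59 and 0.13 for Itga6 (adjusted p = 0.0428) and 0.41 and 0.02 for Itga5 (adjusted p = 0.0124). Itga9 had values of 0.70 and 0.15, with an adjusted p of 0.435 for their difference and of 0.00111 with the replicate block, in which 16.3% of all genes passed (0.00106 to 0.73 over 24 settings). With the replicate block, the adjusted p of the difference was 2.95e-06 for Itgav and 7.95e-05 for Itga6. Without the block, both calls lay close to the threshold. Over 24 settings the adjusted p reached 0.104 for Itgav and 0.0975 for Itga6. Without the block, leaving out any 1 library lost both calls, except for CTRL replicate 1, Act + FST replicate 1 and FST replicate 2. In each such loss 3 of 8 members passed.

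Levels of different genes were compared per 1000 exonic bases. In CTRL, Itgb1 stood at 427 ± 29.5 (SD, n = 3) and Itgb5 at 346 ± 3.84 normalized counts per 1000 exonic bases. Next came Itga6 at 175 ± 18.8 and Itga5 at 157 ± 6.69, which overlap within their SD. Itga9 at 62.1 ± 15.3, Itgb3 at 61.5 ± 3.11 and Itgav at 60.5 ± 11.3 could not be ordered. Itgb8 was the lowest at 0.814 ± 0.478. In Act the order changed, with Itgb5 at 467 ± 13.0 above Itgb1 at 414 ± 10.6, and Itgav at 116 ± 13.5 and Itgb3 at 10.1 ± 4.09 no longer alike. Of 18359 genes with an exonic length, 0 exceeded 1 normalized count per exonic base in any library (highest mean 0.883). If reads sharing a start were removed, which is not known, Itgb1 and Itgb5 would be lowered most among these members. The levels, shares and ratios given here and below would then shift.

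**Figure D3:**
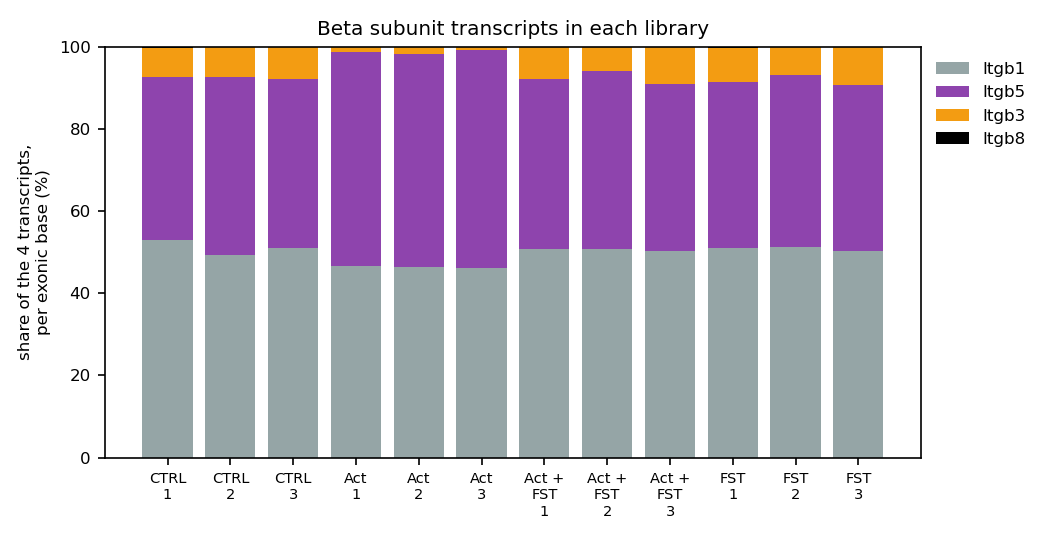
Share of Itgb1, Itgb5, Itgb3 and Itgb8 in the summed value of these 4 β subunit transcripts per exonic base (vertical axis, %), with 1 stacked bar per library. Itgb3 takes 0.708% to 1.65% in Act and at least 5.91% in every other library, while Itgb8 is too low to be seen.

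The make-up of the β subunit transcripts shifted accordingly. Itgb3 made up 7.36% ± 0.267 (SD, n = 3) of the 4 β transcripts per exonic base in CTRL, against 1.14% ± 0.475 in Act. With both agents (Act + FST) its share was 7.54% ± 1.55, and with FST288 alone 8.11% ± 1.29. Itgb5 made up 41.4% ± 1.86, 52.4% ± 0.557, 41.8% ± 1.23 and 40.9% ± 0.869 of them in the same order of groups. Itgb1 fell below Itgb5 in Act only, at 46.4% ± 0.132 against 51.1% ± 1.82 in CTRL. Without division by length, Itgb1 stayed ahead in Act, at 49.5% against 48.6% for Itgb5.

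Ratios were also taken within each library. Per exonic base, the ratio of Itgb5 to Itgb3 was 5.37 to 6.02 in CTRL and 31.5 to 74.8 in Act, and with FST288 present it was 4.53 to 7.30 (Act + FST) and 4.34 to 6.22 (FST). The ratio of Itgav to Itgb3 was 0.876 to 1.17 in CTRL and 7.61 to 17.2 in Act, whereas that of Itgav to Itgb5 was 0.146 to 0.213 in CTRL and 0.230 to 0.275 in Act. For the β1 receptors, the ratio of Itga5 to Itgb1 was 0.353 to 0.395 in CTRL and 0.481 to 0.529 in Act, and that of Itga6 to Itgb1 was 0.392 to 0.424 and 0.620 to 0.646. Act and CTRL did not overlap in any of these ratios.

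Genes with the most similar pattern were sought by Pearson r of log2 values over the 12 libraries, among 10633 genes with a mean of at least 50 (10634 for Itgb8). The points share their libraries and fall into groups, so r is a description. Itgav was closest to Dock4 (r = 0.993), Cacna1d (0.991) and Heatr1 (0.989), and Itga6 to Inpp4b (0.989), Dst (0.988) and Prag1 (0.988). Itga5 was closest to Osbpl3 (0.980), Treml4 (0.977) and Mettl14 (0.977), and Itga9 to Plxdc2 (0.979), Gpr171 (0.969) and Prkce (0.967). Itgb3 was closest to Tmem154 (0.994), Tox2 (0.990) and Tmod1 (0.990), and Itgb5 to Bin2 (0.989), Plcb3 (0.989) and Cxcr4 (0.986). Itgb1 was closest to Lipa (0.940), Cd84 (0.926) and Golph3l (0.899), and Itgb8 to Zfyve28 (0.973), Egr2 (0.961) and Klf9 (0.925).

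Other integrin subunits were largely not called without the replicate block. Of 14 tested (17 of 20 listed), 1 rose in Act versus CTRL and 0 fell, against 10.3% and 9.97% of all genes tested. Their median log2 fold change was 0.06, against 0.00 over all genes. The 1 that rose was Itgal, the α chain of LFA-1, from CTRL values of 851, 781 and 650 normalized counts to 1725, 1692 and 1963 in Act (log2 fold change 1.24, adjusted p = 2.98e-05). Its partner Itgb2, the leukocyte β chain, stood at 1683, 1483 and 1561 in CTRL and 1592, 1486 and 1570 in Act (log2 fold change -0.02, adjusted p = 0.80). With the replicate block, 2 of the 14 rose and 2 fell, and 31.5% of all genes passed.

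**Figure D4:**
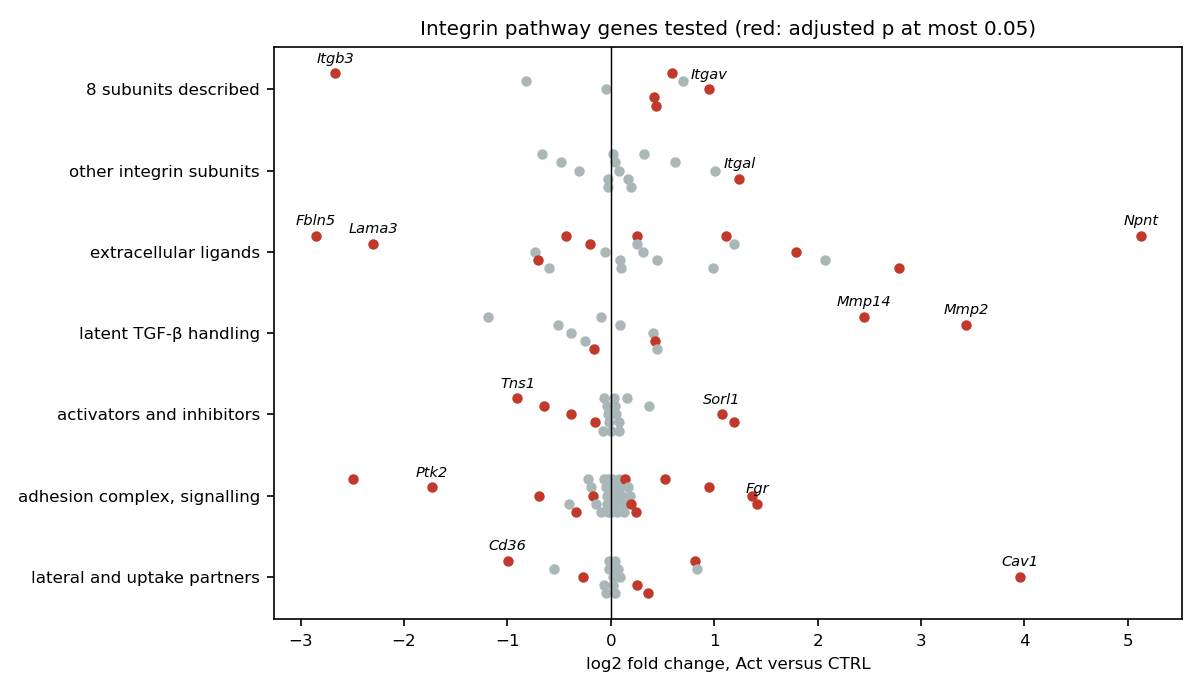
Log2 fold change of Act versus CTRL (horizontal axis) for the 8 subunits and the tested genes of 6 lists of the integrin pathway (rows), each point 1 gene, red where the adjusted p was at most 0.05. Itgb3 is the lowest point of its row at -2.66, and most genes of the activator and adhesion lists lie near 0.

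Among ligands, 5 of 21 tested genes (27 of 37 listed) rose in Act and 5 fell, against 10.3% and 9.97% of all genes tested. Their median log2 fold change was 0.25. With the replicate block, 8 rose and 7 fell, and 31.5% of all genes passed. Fbln5, the elastic fibre protein fibulin-5, fell from 131, 136 and 147 normalized counts to 22, 21 and 13 (log2 fold change -2.85, adjusted p = 1.95e-06). Lama3, a laminin chain, fell from 858, 717 and 953 to 229, 221 and 96 (-2.30, adjusted p = 6e-05). Vwf, von Willebrand factor, changed by -0.71 (adjusted p = 0.00244), Mfge8, which bridges apoptotic cells to αvβ3 and αvβ5, by -0.43 (adjusted p = 4.29e-04), and Spp1, osteopontin, by -0.20 (adjusted p = 0.0319). Pecam1, an endothelial and leukocyte adhesion molecule, rose by 1.12 (adjusted p = 0.0333) and Emilin1, an elastic fibre glycoprotein, by 0.25 (adjusted p = 0.00392). Fn1, fibronectin, stood at 238, 159 and 105 in CTRL and 310, 282 and 359 in Act (log2 fold change 0.99, adjusted p = 0.213). It was at 179, 64 and 41 in Act + FST and at 175, 90 and 47 in FST. Its Act libraries all lay above the other 9 (highest 238). Act lay above or below all other 9 for 23.9% of all genes tested. Vtn, vitronectin, was not listed.

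Genes that present or release latent TGF-β, a cargo of alpha-v integrins, moved in both directions, with 3 of 12 tested (14 of 14 listed) higher and 1 lower, against 10.3% and 9.97% of all genes tested. The 3 that rose were the matrix metalloproteinase genes Mmp2 (3.43, adjusted p = 2.11e-06) and Mmp14 (2.45, adjusted p = 3.79e-06) and Ltbp3, a latent TGF-β binding protein (0.43, adjusted p = 0.00109). Nrros, which tethers latent TGF-β on macrophages, fell by 0.16 on the log2 scale (adjusted p = 0.0435). Tgfb1 had 1172, 1197 and 1238 normalized counts in CTRL, against 1133, 1117 and 1130 in Act (adjusted p = 0.252), and Lrrc32, another tether, at 46, 32 and 7 and at 12, 8 and 8 (adjusted p = 0.347). With the replicate block, 5 rose and 2 fell, and 31.5% of all genes passed.

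Of the cytoplasmic activators and inhibitors of integrins, 2 of 19 tested (20 of 21 listed) rose and 4 fell (3 and 4 with the replicate block). Of all genes tested, 10.3% were called higher and 9.97% lower, and 31.5% passed with the block. Tln1, talin-1, which switches integrins on, had 3789, 3201 and 3319 normalized counts in CTRL, against 3541, 3311 and 3169 in Act (adjusted p = 0.763). Fermt3, kindlin-3, was at 1616, 1622 and 1677 and at 1631, 1566 and 1715 (adjusted p = 0.986). Sorl1, a sorting receptor, rose by 1.08 (adjusted p = 2e-05). Tns1, the adhesion adaptor tensin-1, changed by -0.90 (adjusted p = 3.29e-05), Itgb3bp, which encodes a protein binding the β3 tail, by -0.64 (adjusted p = 0.00122), and Raph1, lamellipodin, by -0.39 (adjusted p = 0.0111).

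Signalling genes of adhesion complexes moved in both directions, 7 of 39 tested (40 of 41 listed) higher and 5 lower, against 10.3% and 9.97% of all genes tested. The kinases Fgr (log2 fold change 1.41, adjusted p = 0.00331) and Src (1.37, adjusted p = 4.61e-04) and the scaffold Nedd9 (0.95, adjusted p = 8.26e-05) rose. Ptk2, focal adhesion kinase, fell from 180, 131 and 148 normalized counts to 44, 65 and 32 (-1.73, adjusted p = 2.88e-04), Vcl, vinculin, changed by -0.69 (adjusted p = 0.00147), and Fyn, a Src-family kinase, by -0.33 (adjusted p = 0.00393). The blocked fit gave 10 higher and 8 lower, and 31.5% of all genes passed in it.

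Of 18 membrane and uptake partners, all tested, 4 rose and 2 fell (5 and 3 with the replicate block). The shares of all genes tested were 10.3% higher and 9.97% lower, with 31.5% called in the blocked fit. Cav1, caveolin-1, rose from 15, 17 and 7 normalized counts to 214, 156 and 254 (3.96, adjusted p = 2.28e-04). Tgm2, transglutaminase 2, a fibronectin-binding partner of β chains, rose by 0.81 (adjusted p = 3.36e-06), and Cd82, a tetraspanin, by 0.36 (adjusted p = 0.0020). Cd36, which works with alpha-v integrins in the uptake of apoptotic cells, fell from 1727, 1423 and 1412 to 783, 825 and 673 (adjusted p = 8.13e-06), and Lgals3, galectin-3, changed by -0.27 (adjusted p = 0.00188). In Act + FST and in FST versus CTRL, 0 genes of these 6 lists passed. The blocked fit called 3 in Act + FST versus CTRL, with Itgax (-0.96, adjusted p = 0.00199) and Mfge8 (-0.30, adjusted p = 0.0230) lower and Mmp14 (0.57, adjusted p = 0.0453) higher. These 3 were named after their values were seen.

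Markers of other cells were counted beside these results. For comparison, 10.3% of all genes tested were called higher and 9.97% lower, and 31.5% passed with the replicate block. Of the macrophage markers, Aif1 and Cd14 rose, and Cd163 and Mrc1 fell. Of the fibroblast markers, 0 of 6 tested rose and 1 fell (3 and 1 with the replicate block), and 11 listed of 12 summed to 92 to 129 in CTRL and 111 to 341 in Act. The 1 that fell did so by at least 2-fold. Col1a2, picked outside the naming rule, was at 24, 0 and 0 in CTRL and 109, 9 and 6 in Act, most of it in replicate 1. Of the endothelial markers, 1 of 4 rose (Pecam1), of the dendritic cell markers 1 of 7 fell, of the granulocyte and mast cell markers 4 of 10 fell, and of the lymphocyte markers 0 of 2 passed. In the blocked fit, 3 dendritic cell markers rose and 1 fell, 1 endothelial marker rose and 1 fell, 5 granulocyte and mast cell markers fell, and 0 lymphocyte markers passed. The granulocyte and mast cell sum was 924 to 1319 in CTRL and 714 to 1159 in Act, and the lymphocyte sum 8 to 26 and 10 to 23. The part of these cells in the results was not tested.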

How the data were processed

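RNA sequencing of 12 BMDM libraries was analysed. The deposited values are a signal per gene and library, made from read counts by the authors with a common factor for each library and then rounding. Per the labels, reads were trimmed with Trimmomatic 0.39, aligned with STAR 2.7.9a to mm10 and counted with featureCounts 2.0.2, with DESeq2 1.30.0 named among the tools. Removal of duplicate reads, the scaling formula and the strand setting are not given in the sources used here. A gene with many reads is measured lower if reads sharing a start were removed. Whole reads could not be recovered, so the depth of each library in reads is unknown, and no count model was used.

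Differences were tested with limma 3.58.1 in R 4.3.3, with empirical Bayes and a trend on the mean, on log2(normalized count + 1), for 14318 of 18376 genes with a mean of at least 5, in 1 model of 4 group means over 12 libraries. Fold changes are on that scale, which understates changes of low genes. Tests were two-sided, and p-values were adjusted by Benjamini-Hochberg over all genes tested. The fit was checked on simulated data. Deviations from group means correlated in all 18 pairs of libraries with the same replicate number (r 0.157 to 0.481, mean 0.312). The mean of -0.155 in 36 others largely follows from centring each group of 3 libraries, so it is no separate evidence. What the numbers stand for is not stated in the labels. A fit with the number as a block is given where it changes a member's call or a list count in Act versus CTRL.

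Exonic lengths and positions come from GENCODE for GRCm38. The members, lists and motifs were chosen with earlier results of these data known. From each list, up to 3 rises and 3 falls with a mean of at least 50 among those called in Act versus CTRL are named, with 11 genes named whatever their values, and for each member the 3 genes of highest r. Gp9, Pf4 and Col1a2 were named outside this rule. All 7 motifs searched are reported. Alternatives were other pseudocounts, filters, normalizations, test settings, libraries and the block, and, chosen after the data were seen, a correction for reads sharing a start. A member each of the macrophage marker and activin response lists is not reported here.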

Additional observations from a re-analysis of the deposited data

Results flagged for a closer look

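The activin A effect differed between cells without and with FST288 by a test of the difference itself (limma, adjusted over all genes tested) for 5 subunits. Of all genes tested, 6.74% passed it. On the log2 scale the effect without FST288 minus that with it was 0.94 for Itgav (adjusted p = 0.0430), 0.39 for Itga5 (adjusted p = 0.0124), 0.46 for Itga6 (adjusted p = 0.0428), -2.53 for Itgb3 (adjusted p = 9.65e-04) and 0.42 for Itgb5 (adjusted p = 0.0010). The calls of Itgav and Itga6 lay close to the threshold. When single libraries were left out, each was kept in 3 of 12 fits. The groups hold 3 libraries each, so no test for a library far from the others was made.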

How the results depend on the processing

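Each member's log2 fold change was recomputed under up to 23 alternatives, giving 915 values: 854 kept direction and call, 30 that were called neither way changed sign, 11 became calls (all Itga9), 20 lost a call (10 each of Itgav and Itga6, all in the test of FST288 on the activin A effect), and 0 called values reversed. That test called 3 members with empirical Bayes without a trend and 3 to 5 when single libraries were left out, all without the replicate block. With the block it called 6, and 16.3% of all genes passed. The members called were 5 to 6 in Act versus CTRL and in Act versus Act + FST and 0 to 0 in the other comparisons with CTRL when single libraries were left out. Itga9 passed in Act versus CTRL without CTRL replicate 1 (0.89, adjusted p = 0.0311), without Act replicate 3 (0.87, adjusted p = 0.0476) or without Act + FST replicate 3 (adjusted p = 0.0310), and in Act versus Act + FST without Act + FST replicate 1 (0.85, adjusted p = 0.0343). The cause was not tested.

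With the replicate block, 6 members passed in Act versus CTRL (31.5% of all genes) and 6 in Act versus Act + FST (32.6%). Among members the block changed no call but those of Itga9. Correction for reads sharing a start gave 1.00 for Itgav, 0.67 for Itga6, 0.57 for Itgb5 and -2.70 for Itgb3 in Act versus CTRL. Itgb8 had no value under a mean of at least 50. Without division by length, β shares in CTRL, Act, Act + FST and FST were 10.9%, 1.75%, 11.1% and 11.9% for Itgb3, 36.8%, 48.6%, 37.1% and 36.2% for Itgb5, 0.267%, 0.126%, 0.121% and 0.237% for Itgb8, and 49.5%, 51.7% and 51.7% for Itgb1 in the last 3.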

Other observations

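Ligand and activator genes below the mean set for naming also differed between Act and CTRL, and they were chosen after their values were seen. Npnt, nephronectin, a ligand of α8β1, was listed at 0, 1 and 0 normalized counts in CTRL, against 42, 45 and 42 in Act. With both agents it was at 0, 1 and 0, and with FST288 alone at 0, 0 and 0 (adjusted p of Act versus CTRL = 4.86e-06). Itga8, its receptor chain, was at 106, 65 and 59 in CTRL and 136, 112 and 99 in Act (adjusted p = 0.189). Col4a1, a basement membrane collagen chain, was at 2, 2 and 1 in CTRL and 19, 20 and 13 in Act (adjusted p = 0.00227), and Col4a2 at 17, 9 and 4 and at 36, 41 and 23 (adjusted p = 0.0404). Tln2, talin-2, was at 15, 14 and 15 in CTRL and 33, 49 and 26 in Act (adjusted p = 0.00428).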
